A study of Mus musculus with 6 samples.

Results

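The Rag GTPases, the Ragulator complex and the mTOR kinase were followed at the transcript level in oocytes of aged mice. The set held 10 genes of the 25631 listed, namely Rraga, Rragb, Rragc, Rragd, Lamtor1 to Lamtor5 and Mtor, each found by its symbol. They were chosen by measured values, since Rraga was singled out for its FPKM difference between the groups compared here and the others were added as its paralogs and partners. The differences between the groups are therefore given for these genes as a description. Where the fit over all genes counts calls among them, the count stands beside the share of all genes and supports nothing about them. FPKM is the number of sequenced fragments divided by transcript length and by library size.

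The oocytes came from 14-month-old female ICR mice, a naturally aged model without a genetic change. The 3 control libraries were from untreated mice on water only. The 3 aminophylline libraries were from mice that drank 4.0 mM aminophylline, a theophylline derivative that inhibits phosphodiesterases non-selectively, for 1 week and then water alone for 3 weeks. All mice received equine chorionic gonadotropin, and the oocytes were punctured from large antral follicles. The labels do not say how many mice or oocytes went into a library, or whether libraries came from separate mice, so the spread between libraries may be partly technical.

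Rag GTPases are small GTPases that work as pairs, RagA or RagB with RagC or RagD, on the lysosomal surface. Ragulator, a scaffold of the LAMTOR proteins, holds the pair on that membrane. When amino acids are plentiful, the loaded Rag pair recruits mTORC1, the growth-promoting complex built on the kinase mTOR, to the lysosome, where Rheb can switch it on. In the ovary, mTORC1 signalling in oocytes and in the surrounding pregranulosa cells is known for its part in waking primordial follicles.

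The 4 Rag genes lie apart in the mouse genome (GRCm38). Rraga is on chromosome 4 at 86575673 to 86577285 on the plus strand and consists of a single exon. Rragb is on chromosome X at 153137644 to 153190192, Rragc on chromosome 4 at 123917433 to 123936997, and Rragd on chromosome 4 at 32982998 to 33022180. The annotated coding transcripts of these 3 genes have up to 11, 7 and 8 exons. The 250 bases before each start site are shown because these paralogs, 2 pairs with like proteins, had levels far apart in oocytes. The sequences are from RefSeq (GRCm38.p6), all on the plus strand, and run 5′ to 3′ up to the base before the start, with the letters CACGTG in capitals. The windows are chr4:86575423-86575672 for Rraga, chrX:153139708-153139957 for Rragb, chr4:123917183-123917432 for Rragc and chr4:32982748-32982997 for Rragd. The Rragb window lies inside the outer limits of the gene because it precedes a start site further downstream.
Rraga: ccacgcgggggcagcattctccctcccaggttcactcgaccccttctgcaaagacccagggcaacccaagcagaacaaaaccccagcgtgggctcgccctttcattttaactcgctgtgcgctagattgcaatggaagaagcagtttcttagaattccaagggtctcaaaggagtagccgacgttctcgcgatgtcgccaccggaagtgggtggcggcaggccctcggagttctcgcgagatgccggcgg
Rragb: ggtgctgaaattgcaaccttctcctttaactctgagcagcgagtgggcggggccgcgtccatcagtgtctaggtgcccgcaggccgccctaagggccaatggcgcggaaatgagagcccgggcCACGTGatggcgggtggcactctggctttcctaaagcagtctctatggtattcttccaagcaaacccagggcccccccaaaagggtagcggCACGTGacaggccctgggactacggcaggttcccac
Rragc: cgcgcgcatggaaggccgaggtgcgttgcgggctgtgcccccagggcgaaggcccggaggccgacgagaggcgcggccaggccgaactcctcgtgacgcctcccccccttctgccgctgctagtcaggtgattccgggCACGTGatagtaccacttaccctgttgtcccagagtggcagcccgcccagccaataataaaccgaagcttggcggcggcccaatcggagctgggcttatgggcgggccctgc
Rragd: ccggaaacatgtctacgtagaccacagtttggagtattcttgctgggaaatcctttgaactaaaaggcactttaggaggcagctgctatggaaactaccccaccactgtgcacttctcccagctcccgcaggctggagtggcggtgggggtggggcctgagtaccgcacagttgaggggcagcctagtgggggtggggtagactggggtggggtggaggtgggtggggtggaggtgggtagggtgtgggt

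CACGTG, the core of the sites that basic helix-loop-helix factors such as TFEB can bind, was present in 6.02% of the 32851 windows of this length. Of the 9 windows held for these genes (Lamtor3 had none), 4 contained it, those of Rragb, Rragc, Lamtor1 and Lamtor4. It occurred in Rragb at -127 and -36 and in Rragc at -112, counted from the start site to the first letter. The windows of Rraga and Rragd, one from each pair, did not contain these letters. CCAAT on either strand was in 7 of the 9 windows and in 33.8% of all windows, and GGGCGG on either strand in 4 of the 9 and in 32.7% of all. The windows held 19 CpG dinucleotides in Rraga, 14 in Rragb, 24 in Rragc and 5 in Rragd. Lamtor1 and Lamtor2 had 16 each, Mtor 19, Lamtor4 5 and Lamtor5 3, although Lamtor5 was the most abundant transcript of the set.

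The read totals behind the FPKM, recovered from the values themselves, were 14112341 to 33641283 per library, the lowest in control library 2. Of each total, 99.57% to 99.63% lay on genes with recovered reads. All 12 listed oocyte markers had an FPKM of at least 1 in all 6 libraries, and their sum was 19864 to 27404 in the control and 21243 to 24922 in the aminophylline group. Of the granulosa and cumulus markers, 3 of 10 had a mean FPKM of at least 1, the sum being 16.0 to 23.9 in the control and 17.6 to 22.6 in the aminophylline group. These 3 were Cyp19a1 (7.37 to 15.7 FPKM), Nr5a2 (4.43 to 8.53 FPKM) and Inha (0.417 to 1.66 FPKM). The other listed genes had lower means, Foxl2, Amh and Fshr among them at 0 to 0.270 FPKM. Theca and stroma markers summed to 2.90 to 3.83 and 3.89 to 5.24 FPKM, endothelial markers to 5.76 to 9.15 and 6.22 to 8.29, and erythrocyte markers to 0.0679 to 0.585 and 0.0486 to 0.380. Macrophage markers summed to 81.9 to 243 FPKM in the control and 82.6 to 101 in the aminophylline group. The top value was in control library 1, where 9 of the 11 listed macrophage genes were at their highest, and the other control libraries had 81.9 and 103. Outside control library 1, most of each sum came from a single gene, C1qb, at 79.2 to 99.8 FPKM.

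The differences were tested by limma over the 10340 genes that reached 1 FPKM in 3 or more of the 6 libraries, and a call needed an unadjusted p under 0.05 and a fold change over 1.5. Of the 10 genes, 8 passed this filter, and Rragb and Rragd did not. Among the 8 there was 1 higher call, Rraga, and no lower call, while 2.08% of all tested genes were called higher in the aminophylline group and 1.13% lower (215 and 117 genes). That split depended on the scaling between libraries, with 147 higher and 151 lower calls after rescaling to a common sum, 127 and 217 after quantile normalization and 132 and 227 after median centring. Rraga was also the 1 gene of the 10 whose 2 groups did not overlap, against 12.5% of all tested genes in either direction and 7.51% with the aminophylline group higher. Because Rraga was chosen on this contrast, nothing is read from these counts.

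RagA, encoded by Rraga, is a subunit whose nucleotide state helps decide whether the Rag pair can call mTORC1 to the lysosome. Rraga had 37.9, 61.3 and 51.3 FPKM in control libraries 1 to 3, and 106, 82.8 and 127 FPKM in aminophylline libraries 1 to 3. Each aminophylline library lay above each control library, the nearest pair being control 2 and aminophylline 2. The means were 50.2 ± 11.7 FPKM (SD, n = 3) and 105 ± 22.1 FPKM (SD, n = 3), a ratio of 2.10. On the log2(FPKM + 1) scale the difference was 1.06 with an SE of 0.22. The values rested on 1396 to 6266 reads per library, so counting error was small next to the spread between libraries. Within same-numbered libraries the ratio of aminophylline to control was 2.78, 1.35 and 2.48.

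**Figure D1:**
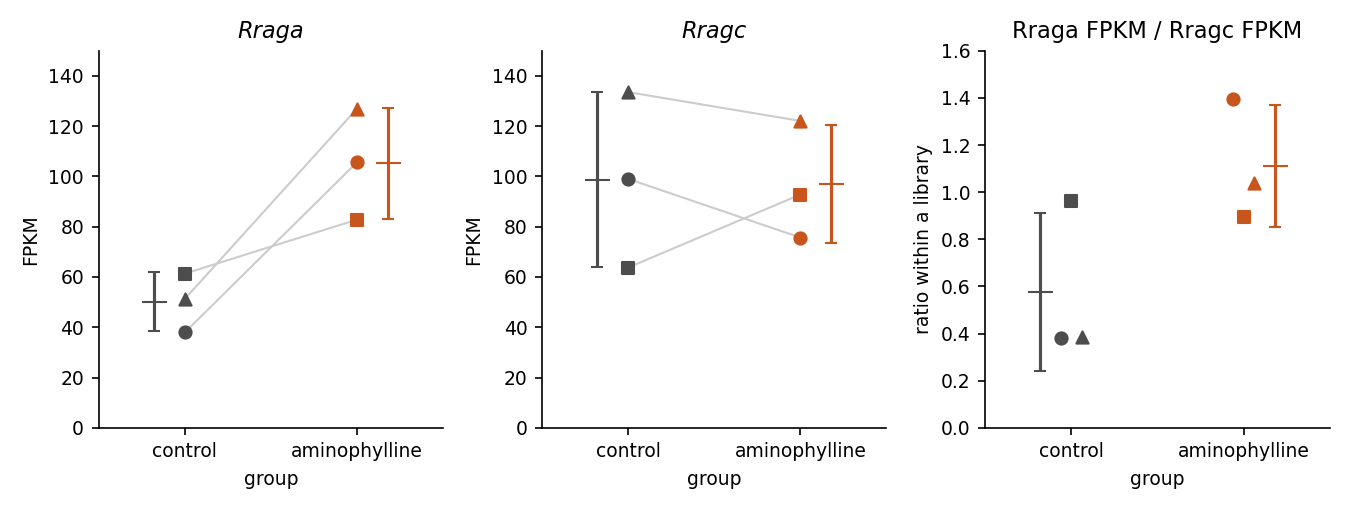
FPKM of Rraga (left) and Rragc (middle) and their ratio within each library (right), in control (grey) and aminophylline (orange) libraries. Points are libraries, their shapes and the thin lines mark the replicate number, and bars show mean ± SD (n = 3). The Rraga groups do not overlap, and the Rragc groups and the ratios do.

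The library lowest in Rraga, control 1, was also the one with macrophage transcripts. There Lyz2, the macrophage and neutrophil lysozyme, stood at 66.4 FPKM, Fcer1g at 57.6 and Tyrobp at 20.3, against at most 0.573, 0.368 and 0.308 FPKM in the other libraries. Complement gene C1qb differed from these 3, being lowest in control 1 at 72.3 FPKM and at 79.2 to 99.8 FPKM in the other libraries. The oocyte markers summed to 19864 FPKM in control 1, the lowest of the 6 libraries, and to 20953 and 27404 in the other control libraries. Of the 12 oocyte markers, 5 were at their lowest in control 1 and the other 7 were not. Without control library 1 the log2 difference of Rraga was 0.87 with an SE of 0.21. Whether these transcripts had a part in the low Rraga value was not tested. In bulk libraries of this kind, fewer cells of a type and less RNA per cell cannot be told apart.

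**Figure D2:**
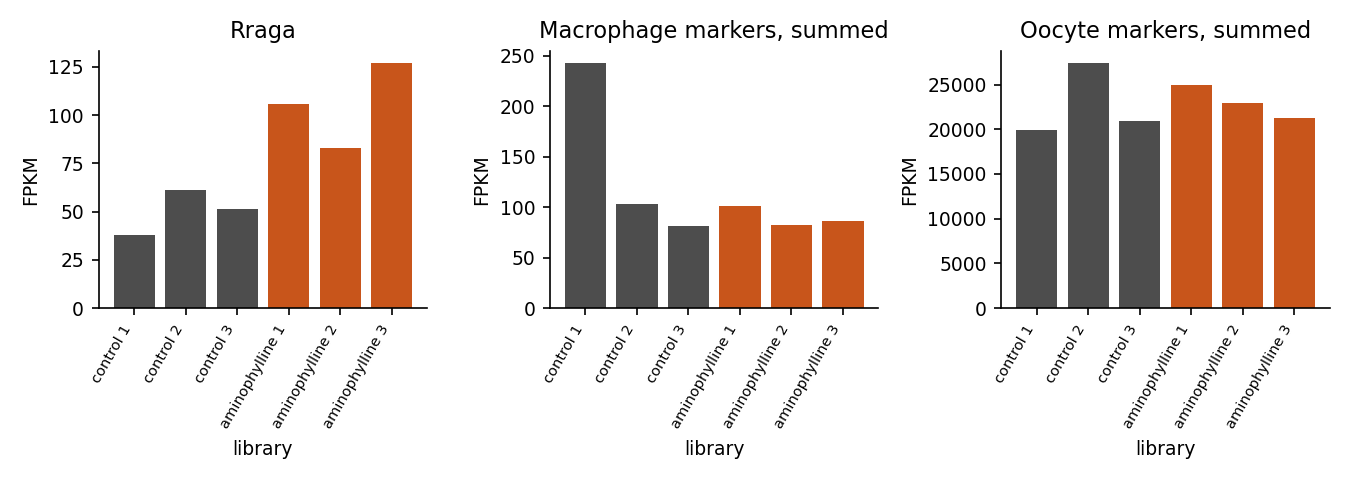
Rraga FPKM, the summed FPKM of 11 macrophage markers and the summed FPKM of 12 oocyte markers in each of the 6 libraries (grey, control; orange, aminophylline). Control library 1 has the lowest Rraga, the highest macrophage sum (243) and the lowest oocyte sum (19864, next to 20953 in control library 3). In the other libraries most of the macrophage sum is C1qb.

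No gene of the 10340 had a limma adjusted p under 0.05 (Benjamini-Hochberg), a background of 0%, and no member did, whereas 750 genes had an unadjusted p under 0.05. With the replicate number as a block, 47 genes did (0.455%), and Rraga was 1 of them, which, given how it was chosen, is no independent evidence. That count fell back to 0 when each library was also corrected for GC content and transcript length.

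RagB is the close paralog of RagA, and its transcript was almost absent. Rragb had 0, 0 and 7 reads in control libraries 1 to 3 and 0, 1 and 1 in aminophylline libraries 1 to 3, or 0 to 0.0412 FPKM. In these libraries 3 reads of this transcript correspond to 0.0167 to 0.0398 FPKM, and 5 of the 6 libraries lay under that floor, so no fold change is given. Within each library, Rragb made up at most 0.0802% of the summed FPKM of Rraga and Rragb. The coding transcripts of both genes aligned over 809 bases with 82.8% identity, and the way the authors treated reads that match both is not given in the sources used here.

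RagC is the other member of the pair and binds GDP in the active state. Rragc had 99.0, 63.7 and 134 FPKM in control libraries 1 to 3, and 75.7, 92.8 and 122 FPKM in aminophylline libraries 1 to 3. The control libraries were the more widely spread and enclosed all 3 aminophylline values. Means were 98.8 ± 34.9 and 96.9 ± 23.5 FPKM (SD, n = 3 each), with a log2 difference of 0.01 and an SE of 0.26. Leaving out 1 library moved this difference between -0.27 (without control 2) and 0.26 (without control 3). A gene on the opposite strand, 4930535I16Rik, overlaps Rragc by 519 bases, and strand-specific counting is not stated.

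RagD, the paralog of RagC, was detected at a trace. Rragd had 9, 9 and 11 reads in the control and 7, 15 and 10 reads in the aminophylline libraries, or 0.0476 to 0.122 FPKM. The 2 groups overlapped fully, with 0.0800 ± 0.0374 and 0.0755 ± 0.0360 FPKM (SD, n = 3). Rragd accounted for 0.0497% to 0.192% of the summed Rragc and Rragd FPKM. In both groups, nearly all Rag FPKM came from Rraga and Rragc.

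The ratio of Rraga to Rragc, the 2 Rag transcripts present, was 0.383, 0.962 and 0.384 in control libraries 1 to 3 and 1.40, 0.893 and 1.04 in aminophylline libraries 1 to 3. Control libraries 1 and 3 lay well under the aminophylline libraries, and control 2 lay within the aminophylline range. The mean ratios were 0.576 ± 0.334 and 1.11 ± 0.259 (SD, n = 3). In control library 2, the shallowest, Rragc was at its lowest and Rraga at its control maximum. Against Ragulator genes the ratio of Rraga separated the groups for Lamtor1 (0.304 to 0.370 in the control, 0.621 to 0.915 in the aminophylline group), Lamtor3, Lamtor4 and Lamtor5. For Lamtor2, Rragd and Mtor the ratio overlapped between the groups, and that to Rragd rested on 7 to 15 Rragd reads per library. As Rraga was chosen for its difference between these groups, its ratios are a description only. Nothing is read from their separation.

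**Figure D3:**
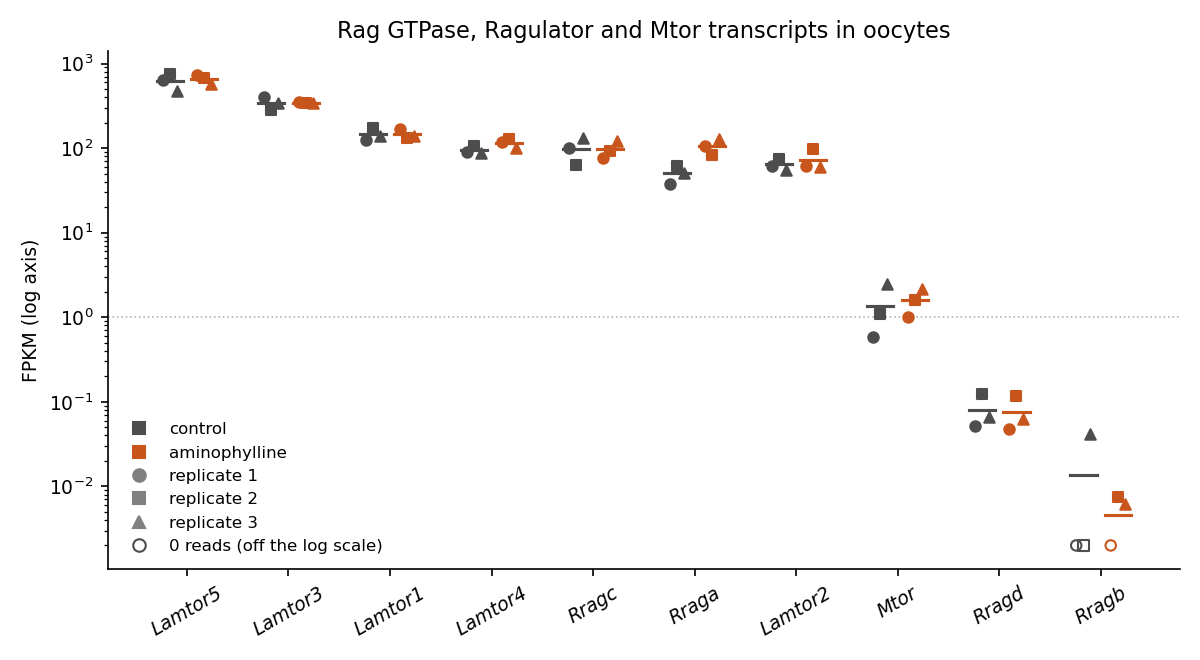
FPKM of the 10 genes in each library on a log axis, ordered by mean over the 6 libraries (grey, control; orange, aminophylline; lines, group means; open symbols near the bottom, 0 reads). Lamtor5 is highest at 469 to 747 FPKM, and Rragd and Rragb lie under the dotted line at 1 FPKM.

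The Ragulator transcripts were the most abundant of the set, with a combined 1088 to 1430 FPKM per library. LAMTOR5, which with its partners forms the roadblock-fold core of the scaffold, had 638, 747 and 469 FPKM in control libraries 1 to 3 and 736, 673 and 581 FPKM in the aminophylline libraries. The aminophylline values lay within the control range, with a log2 difference of 0.12 and an SE of 0.19. Lamtor5 supplied 43.1% to 53.8% of the Ragulator FPKM.

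LAMTOR3, also called MP1, pairs with LAMTOR2. Lamtor3 had 407, 286 and 337 FPKM in the control and 347, 341 and 342 FPKM in the aminophylline libraries. The aminophylline libraries differed little among themselves (SD 3.38), while the control SD was 60.6 FPKM. Its log2 difference was 0.01 with an SE of 0.16. Lamtor2 was the lowest Ragulator gene, at 61.3, 75.4 and 55.5 FPKM in the control and 61.6, 96.6 and 59.0 FPKM in the aminophylline libraries. The groups overlapped, with only aminophylline library 2 above the control range, and the log2 difference was 0.15 with an SE of 0.21. In every library Lamtor2 had a lower FPKM than Lamtor3.

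LAMTOR1, or p18, is the lipid-anchored subunit that tethers Ragulator to the lysosome. Lamtor1 had 125, 174 and 139 FPKM in the control and 169, 133 and 139 FPKM in the aminophylline libraries, all aminophylline values lying inside the control range. The log2 difference was 0.02 with an SE of 0.18. On the opposite strand, Tomt and Lrrc51 overlap Lamtor1, with 0.0735 to 0.457 and 8.73 to 14.9 FPKM. LAMTOR4 pairs with LAMTOR5 in the scaffold. Lamtor4 had 89.4, 107 and 87.8 FPKM in the control and 117, 127 and 102 FPKM in the aminophylline libraries, so that aminophylline library 3 lay below control library 2. Its log2 difference of 0.28, with an SE of 0.16, was the highest among the 7 tested genes other than Rraga. Corrected for GC content and transcript length, it came to 0.04.

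Of the Ragulator genes, 4 have near-copies in the annotation, all processed pseudogenes. These are Gm5900 for Lamtor3 (99.5% identity over 375 bases), Gm5510 and Gm13077 for Lamtor1 (98.4% over 486 and 96.5% over 484), Gm15190 and Gm13537 for Lamtor5 (97.8% over 276 and 96.1% over 228) and Gm15129 for Lamtor4 (91.3% over 276). These copies were not found by symbol among the listed genes and so have no values of their own here. The levels of these Ragulator genes are uncertain to the extent that reads were shared with the copies. For Rragc, the pseudogene Gm49775 aligned over 277 bases with 85.2% identity. No such copy of Rraga was found beyond Rragb.

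Mtor, the kinase at the end of this chain, was low per transcript length. It had 0.578, 1.09 and 2.46 FPKM in control libraries 1 to 3 and 1.001, 1.62 and 2.13 FPKM in aminophylline libraries 1 to 3, on 132 to 673 reads. The control group spanned the aminophylline group on both sides. The log2 difference was 0.17 with an SE of 0.29, from -0.08 without control library 1 to 0.49 without control library 3. For Mtor it was 0.34 when 0.1 in place of 1 was added to the FPKM. Its transcript, at 8595 bases, is the longest of the set. Of 5069 protein-coding genes of 5000 bases or more, 44.4% had a mean FPKM of at least 1, compared with 57.2% of 11333 shorter genes. The median of the longer genes, those under the filter included, was 0.741 FPKM, under the mean of Mtor (1.48). Of the tested genes, however, only 11.6% lay below Mtor in level. A part of length in the Mtor level was not tested.

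By mean FPKM the order was Lamtor5, Lamtor3, Lamtor1, Lamtor4, Rragc, Rraga, Lamtor2, Mtor, Rragd and Rragb. The ranges over the 6 libraries did not overlap between Lamtor5, Lamtor3 and Lamtor1, nor between Lamtor2, Mtor, Rragd and Rragb. Lamtor1 exceeded Lamtor4 in 6 of 6 libraries, by as little as 1.05 times. Lamtor4, Rragc, Rraga and Lamtor2 were not distinct from their neighbours, as Lamtor4 exceeded Rragc in 3 of 6 libraries, Rragc exceeded Rraga in 4 of 6 and Rraga exceeded Lamtor2 in 2 of 6. Lamtor2 exceeded Mtor at least 22.5 times.

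**Figure D4:**
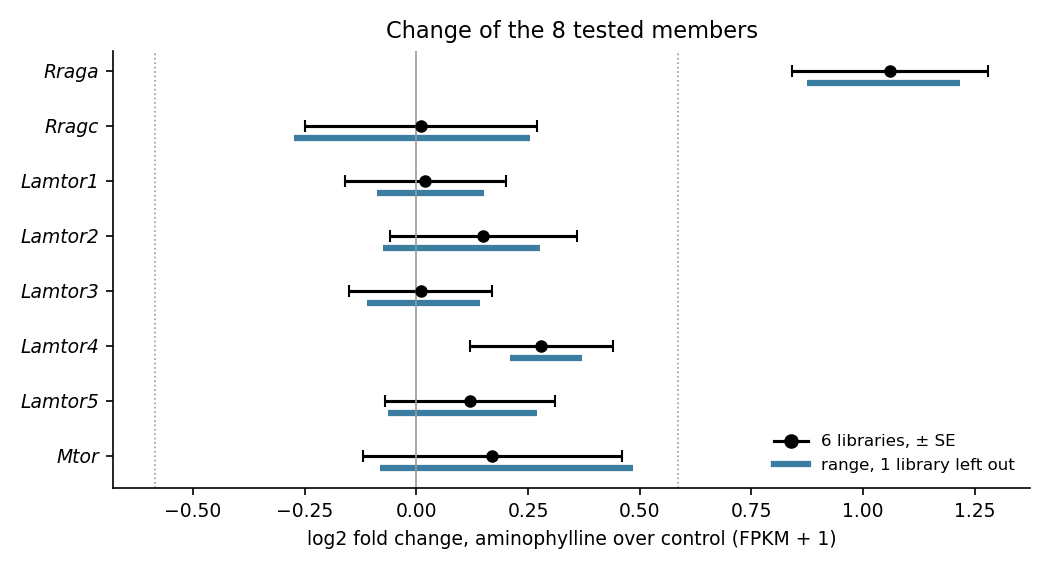
Log2 difference (aminophylline minus control, log2(FPKM + 1)) of the 8 tested genes. Points and bars are the value from 6 libraries ± SE, blue bars the range when 1 library was left out, and dotted lines a fold change of 1.5. Rraga lies at 1.06 and the other 7 between 0.01 and 0.28.

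Over the 8 tested genes the median log2 difference was 0.14, beside 0.10 for all tested genes. All 8 values were above 0, as were 64.8% of all tested genes, but this count depended on the scaling. After rescaling to a common sum, quantile normalization or median centring, 5 of the 8 were above 0, with Rragc, Lamtor1 and Lamtor3 below it. The median of the 8 was then 0.09, 0.02 and 0.05, and after median centring that of all tested genes was 0.01. With the GC content and length correction 4 of the 8 were above 0.

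The regulators and effectors around the Rag GTPases were then examined in 9 lists with 59 genes, all found in the table, of which 39 were tested. None of the 39 rose or fell past the limma thresholds, against 2.08% and 1.13% of all tested genes, and none had an adjusted p under 0.05. A single gene, Sec13, had an unadjusted p under 0.05 (7.25% of all tested genes), as did 6 of the 39 with the replicate block (14.2% of all tested genes). This count was 0 after rescaling to a common sum and without aminophylline library 2 or 3, 7 without control library 2 and 8 without control library 3, where 15.6% and 14.3% of all tested genes had such a p. The median log2 difference was 0.10, equal to that of all tested genes, and 27 of the 39 values were above 0. Voom on recovered reads called Fnip2 alone past the thresholds, and a pseudocount of 0.1 did the same, with 3% and 2.83% of all tested genes called higher. Groups that did not overlap were seen for 6 of the 39 genes, 2 of them higher and 4 lower in the aminophylline group, beside 12.5% of all tested genes.

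Both genes without overlap on the higher side belong to the GATOR complexes, whose other tested genes differed in direction. Sec13, a subunit of GATOR2 that is also part of the nuclear pore and the COPII coat, had 165, 201 and 201 FPKM in the control and 251, 233 and 241 FPKM in the aminophylline libraries. Every aminophylline library exceeded every control library, with a log2 difference of 0.36, an SE of 0.15 and a limma adjusted p of 0.682. It was the GATOR2 gene of highest level. Nprl2, a subunit of GATOR1, the GTPase-activating complex for RagA and RagB, had 94.8, 119 and 105 FPKM in the control and 123, 130 and 121 FPKM in the aminophylline libraries. The log2 difference was 0.23 with an SE of 0.15 and a limma adjusted p of 0.728. Its partner Nprl3 had a log2 difference of -0.30 with an SE of 0.24 and overlapping groups, and Depdc5 failed the filter. Nprl3 and Depdc5 were named after their values were seen. The median log2 difference was -0.04 for GATOR1 and 0.20 for GATOR2. Seh1l, another shared subunit of GATOR2 and the nuclear pore, had 20.2, 14.4 and 16.6 FPKM in the control and 11.9, 13.5 and 11.6 FPKM in the aminophylline libraries. Its log2 difference was -0.43 with an SE of 0.20 and a limma adjusted p of 0.685, so that the values of these 2 GATOR2 subunits lay on opposite sides of 0 without a call. Seh1l is named for its groups, after its values were seen.

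The other 3 genes whose aminophylline libraries all lay below the controls were named for the same reason. Slc38a9, the arginine-sensing lysosomal transporter that acts with Ragulator, had 7.18, 4.82 and 5.58 FPKM in the control and 4.17, 4.04 and 4.12 FPKM in the aminophylline libraries. Its log2 difference was -0.41 with an SE of 0.22. Mapkap1, the mTORC2 subunit SIN1 and the highest of the mTOR complex partners, had 26.0 to 26.9 FPKM in the control and 24.5 to 25.9 FPKM in the aminophylline libraries. Tbc1d7, of the TSC complex, had 27.3 to 27.9 and 26.3 to 26.9 FPKM. The log2 differences of Mapkap1 and Tbc1d7 were -0.08 and -0.05, small beside their SE of 0.16 each.

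**Figure D5:**
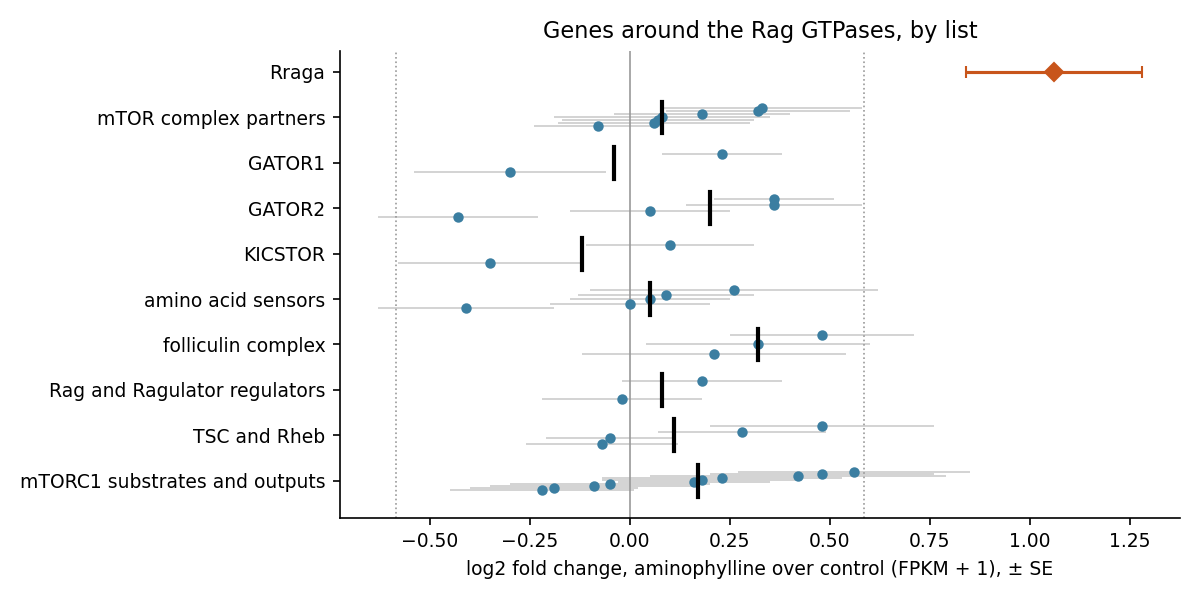
Log2 difference (aminophylline minus control, log2(FPKM + 1), ± SE) of the 39 tested genes around the Rag GTPases, by list, with Rraga for scale. Black ticks are list medians and dotted lines a fold change of 1.5 in FPKM + 1, which none of the 39 passes.

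The remaining highest genes of the lists showed overlapping groups. Rheb, the GTPase that activates mTORC1 directly, had 126 to 190 FPKM in the control and 126 to 165 in the aminophylline libraries, with a log2 difference of -0.07 and an SE of 0.19. Rps6, the ribosomal protein downstream of S6 kinase, had 93.3 to 151 and 127 to 137 FPKM, with a log2 difference of 0.16 and an SE of 0.19. Rnf167, a ubiquitin ligase, had 18.5 to 26.6 and 23.9 to 31.3 FPKM, and Sesn3, of the sestrin family of stress and leucine sensors, 11.03 to 15.8 and 14.3 to 14.6 FPKM. BC048403, the KICSTOR gene also named Kics2, had 4.78 to 7.91 and 4.15 to 5.31 FPKM, and Flcn, which acts on RagC and RagD as folliculin, 1.68 to 4.36 and 2.87 to 4.16 FPKM. Transcripts of the mTORC1-defining subunit Rptor (0.585 to 0.760 FPKM) and of Mlst8 (0.396 to 0.666 FPKM) were under the filter in all 6 libraries, as was Tfeb (0.0217 to 0.0749 FPKM). These 3 were named after their values were seen.

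Leaving out 1 library changed the calls in the lists. Without control library 3, Tfe3, Ulk1, Rhebl1, Flcn and Bmt2 were called higher, with log2 differences of 0.84, 0.75, 0.76, 0.62 and 0.65, but the calls rose over the whole table too, to 8.47% of all tested genes (876 genes). Tfe3 and Ulk1 were also called without aminophylline library 1, where 4.6% of all tested genes were called higher, and Fnip2 without control library 2, where 3.48% were. These genes, other than Flcn, were named after their values were seen. In the full data Tfe3, a relative of TFEB that active Rag pairs bring to the lysosome, had 4.73, 7.06 and 11.2 FPKM in the control and 8.45, 13.0 and 12.6 FPKM in the aminophylline libraries. The groups overlapped through control library 3, and the log2 difference was 0.56 with an SE of 0.29 and a limma adjusted p of 0.694.

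The genes whose levels ran most like Rraga over the 6 libraries were sought among 4265 tested genes with a mean FPKM of at least 10. The highest Pearson r of log2(FPKM + 1) belonged to Tsr3 (0.992), Acot7 (0.988), Eif6 (0.984), Cir1 (0.984) and Setd6 (0.978). The points share the same 6 libraries and both groups, and Rraga does not overlap between the groups, so r is a description of likeness only. Eif6, a ribosome assembly and translation factor, had 145, 187 and 179 FPKM in the control and 233, 224 and 250 FPKM in the aminophylline libraries. Tsr3, a ribosomal RNA modifying enzyme, had 13.3, 17.1 and 15.6 FPKM in the control and 20.1, 18.9 and 22.8 FPKM in the aminophylline libraries. All the genes named here, Acot7, Cir1 and Setd6 included, had control library 1 as the lowest and aminophylline library 3 as the highest. The same held for Rraga. As the genes were picked for their likeness to Rraga, nothing is read from this order or from the functions of Eif6 and Tsr3.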

How the data were processed

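RNA was sequenced from oocytes in 6 libraries, 3 control and 3 aminophylline. The authors deposited FPKM values per gene. The submitters' processing notes name GRCm38 and mm10, while the aligner and counter are not given in the sources used here. RefSeq (GRCm38.p6) and GENCODE annotation of the same build were used. FPKM steps gave whole reads for 100% of values of 22583 genes (relative tolerance 1e-06). log2(FPKM + 1) was tested with limma 3.58.1 (R 4.3.3), two-sided, with a trend on mean expression, for genes with FPKM of at least 1 in at least 3 libraries. The fit was checked on simulated data with changes larger than that of Rraga and without batch effects. That check does not show how the fit performs for smaller changes. Copies were searched with BLAST 2.17.0. Deviations from the group means correlated between same-numbered libraries weakly for numbers 1 and 2 and more for number 3 (r = 0.138, 0.14 and 0.552). Differently numbered libraries were not compared in this way, so a pairing by number is not established. The number, taken from the labels, was also fitted as a block. Alternatives were another pseudocount, other filters and scalings, an unmoderated model, the block, voom on recovered reads and leaving out each library. A GC content and length correction was added after seeing the data. The members and lists were chosen with earlier results of these data known. The named genes were the members, pathway genes called or highest in their list, and the 5 most like Rraga. Rragb and Rragd were in no fit with a filter.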

Additional observations from a re-analysis of the deposited data

How the results depend on the processing

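Because Rraga was chosen on this contrast, its calls under other settings are no evidence of stability and are given as values. It was the 1 member past the thresholds in all 17 alternatives, with a log2 difference from 0.87 (without control library 1) to 1.22 (without aminophylline library 2). The other alternatives with 6 libraries gave 0.98 to 1.11. With the replicate block, 1 member had an adjusted p under 0.05, where the fit without it had 0, and the block changed no other call of a member or a pathway gene. The pathway genes past the thresholds numbered 1 with a pseudocount of 0.1 and 1 by voom on the recovered reads, both times Fnip2, and 0 to 5 when 1 library was left out, with 5 without control library 3. In the limma fit of log2(FPKM + 1) over all 6 libraries, their count was 0. The mean order of the members held in 6 of 10 places in control library 1 and in control library 3. Under these alternatives, the log2 difference of Rraga to Rragb or to Rragd was not followed, since both failed the filter. Depth limited Rragb, with 0 to 7 reads per library, and Rragd, with 7 to 15. Mtor had 132 to 673 reads and varied between libraries of a group (control CV 70.8%); the size of difference that could be detected was not tested.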
